A study of Mus musculus with 15 samples.

Results

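Glycolysis and pyruvate metabolism are represented here by 33 genes, which cover every step from glucose phosphorylation to lactate export, the enzymes that set fructose 2,6-bisphosphate, the entry of pyruvate into mitochondria, and the branches to 2,3-bisphosphoglycerate and glycerol 3-phosphate. They were chosen by name, with earlier results of these data known, and all 33 were found among the 24134 genes listed in each of 2 count tables. RNA-seq was performed on primary articular chondrocytes of neonatal ICR mice, from the femoral condyles and tibial plateaus, kept at passage 0 in serum-containing medium. In the siRNA experiment, cells transfected with control siRNA (siCtrl) were compared with cells transfected together with siRNAs against Tnks and Tnks2 (siTnks/2), which encode the poly(ADP-ribose) polymerases tankyrase 1 and tankyrase 2. In the drug experiment, cells received the solvent DMSO, 10 µM XAV939 or 10 µM IWR-1 for 108 h. Both compounds inhibit the catalytic activity of tankyrase, XAV939 at the nicotinamide site and IWR-1 at the neighbouring adenosine site of the enzyme. The time from transfection to harvest is not given in the sources used here. There were 3 libraries per group, described as biological replicates, and whether a library came from 1 animal or from pooled animals was not stated. The question was how each step of the pathway changed when tankyrase was depleted or inhibited, and which paralog of a step carried the change.

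Glycolysis splits glucose into pyruvate in the cytosol and yields ATP without oxygen. Cartilage has no blood vessels, and chondrocytes are known for drawing most of their ATP from glycolysis and for exporting lactate. Lactate dehydrogenase interconverts pyruvate and lactate, monocarboxylate transporters carry lactate across the plasma membrane, and pyruvate dehydrogenase, which its kinases inhibit, commits pyruvate to oxidation in mitochondria. Many of these genes are textbook targets of the hypoxia-inducible factor HIF, whose binding site often holds the letters ACGTG.

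The promoters of 5 members are shown because they bracket the patterns of change described further on. Slc16a3, Gpi1 and Pfkp were called lower in all 3 comparisons, Pdk4 was called higher in one experiment and lower in the other, and Ldha is the lactate dehydrogenase gene whose 5 matches to ACGTG show the letters searched. Each window runs from 250 bases before to 50 bases after an annotated start site, 300 bases in all, on the strand of the gene (RefSeq, GRCm38.p6). The windows are chr7:46845554-46845853 (plus strand) for the one of the Ldha start sites whose window held matches, chr11:120948817-120949116 (plus strand) for Slc16a3, chr7:34230287-34230586 (minus strand) for Gpi1, chr13:6648722-6649021 (minus strand) for Pfkp and chr6:5496229-5496528 (minus strand) for Pdk4. Capitals mark ACGTG on either strand (CACGT as printed where the match is on the other strand), and CACGTG, the E-box, is read as a match on both strands.
Ldha: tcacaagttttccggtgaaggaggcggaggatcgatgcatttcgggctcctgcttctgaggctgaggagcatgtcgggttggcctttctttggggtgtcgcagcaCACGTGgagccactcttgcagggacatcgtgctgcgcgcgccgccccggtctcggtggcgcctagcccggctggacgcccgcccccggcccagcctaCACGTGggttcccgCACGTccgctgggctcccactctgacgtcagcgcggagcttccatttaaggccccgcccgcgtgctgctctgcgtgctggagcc
Slc16a3: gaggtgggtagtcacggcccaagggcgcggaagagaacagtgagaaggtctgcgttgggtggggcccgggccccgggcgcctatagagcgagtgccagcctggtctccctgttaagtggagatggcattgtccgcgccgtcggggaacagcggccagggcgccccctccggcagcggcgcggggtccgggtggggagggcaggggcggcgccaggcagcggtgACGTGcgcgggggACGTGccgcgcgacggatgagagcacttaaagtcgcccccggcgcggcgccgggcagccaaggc
Gpi1: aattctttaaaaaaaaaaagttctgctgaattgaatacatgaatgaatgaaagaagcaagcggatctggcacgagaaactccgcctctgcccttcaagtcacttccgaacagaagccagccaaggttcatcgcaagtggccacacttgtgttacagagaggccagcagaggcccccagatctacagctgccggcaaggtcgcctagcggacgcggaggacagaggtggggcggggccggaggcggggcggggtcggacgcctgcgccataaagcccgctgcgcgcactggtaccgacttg
Pfkp: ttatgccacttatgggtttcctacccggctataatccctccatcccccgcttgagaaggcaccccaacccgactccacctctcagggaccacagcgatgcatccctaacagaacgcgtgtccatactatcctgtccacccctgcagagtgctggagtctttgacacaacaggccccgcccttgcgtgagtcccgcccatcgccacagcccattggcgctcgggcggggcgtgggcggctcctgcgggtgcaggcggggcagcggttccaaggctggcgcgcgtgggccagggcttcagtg
Pdk4: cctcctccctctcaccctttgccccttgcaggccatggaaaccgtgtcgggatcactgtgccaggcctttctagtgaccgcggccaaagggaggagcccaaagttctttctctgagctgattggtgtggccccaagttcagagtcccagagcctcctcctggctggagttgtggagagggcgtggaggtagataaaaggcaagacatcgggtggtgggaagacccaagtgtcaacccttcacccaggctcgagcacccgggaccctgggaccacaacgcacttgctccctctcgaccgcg
The Ldha window held 5 matches, of which 4 came from 2 E-boxes, and the Slc16a3 window held 2 matches and no E-box. The windows of Gpi1, Pfkp and Pdk4 held none. Over the 33 members, counted per gene, 19 (57.6%) had ACGTG in at least 1 annotated window, against 29.3% of the 10600 genes tested in both tables and 21.8% of all 27025 genes in the promoter table. An E-box was found for 7 members (21.2%), against 11.9% of the genes tested in both tables. A match is a run of letters and was not tested as a binding site, and the related letters GCGTG were not searched.

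Library totals ran from 26857070 to 36615194 counts, and levels are given as CPM, the counts scaled to a common library total. The members took 1.43% to 1.51% of all counts in the siCtrl libraries and 0.967% to 1.13% in the siTnks/2 libraries. They took 2.46% to 2.96% under DMSO, 2.09% to 2.46% under XAV939 and 1.62% to 1.71% under IWR-1. DMSO replicate 3 and siTnks/2 replicate 2 had the lowest shares of their groups. Tnks measured 69.0, 58.4 and 70.1 CPM in siCtrl and 19.5, 12.7 and 24.0 CPM in siTnks/2, and Tnks2 measured 118, 119.6 and 115 CPM and 58.2, 44.9 and 61.2 CPM, so both siRNA targets were lower in every siTnks/2 library (adjusted p = 0.00569 and 0.00384). Chondrocyte markers were abundant in every group, whereas summed leukocyte markers were at most 17.9 CPM, endothelial markers at most 6.88 CPM, skeletal muscle markers at most 8.61 CPM and erythroid markers at most 0.128 CPM. The endothelial maximum came from siTnks/2 replicate 2, in a group with a median of 0.848 CPM. Summed fibroblast and tenocyte markers went from 8744 to 11023 CPM under DMSO to 3936 to 5223 CPM under XAV939 and 2982 to 4811 CPM under IWR-1, while summed chondrocyte markers went from 27395 to 36641 CPM under DMSO to 38192 to 56089 CPM and 90321 to 113714 CPM. In the siRNA experiment the fibroblast sums overlapped, at 3217 to 5380 CPM in siCtrl and 1495 to 4316 CPM in siTnks/2, and the chondrocyte sums did not, at 86266 to 115252 CPM against 123008 to 199925 CPM. These marker levels moved with the groups compared, and their part in the changes reported here was not tested. In such bulk libraries fewer cells of a type and less RNA per cell cannot be told apart. The 2 tables were normalised separately, so levels are compared only within an experiment.

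Members were called in both directions after knockdown, and both inhibitors shifted the list downward. After knockdown, 17 of the 33 members were called, 10 lower and 7 higher, at an adjusted p under 0.05 (edgeR quasi-likelihood test, Benjamini-Hochberg over all genes tested). Over all genes tested, 18.0% were called, 7.61% lower and 10.4% higher. Under XAV939, 9 members were called lower, where 9.85% of all genes were (17.4% in either direction). Under IWR-1, 19 members were called lower, where 20.2% of all genes were (36.4% in either direction). In each case the share of members was larger than the share of all genes. With all libraries and no replicate block, no member was called higher by edgeR or by DESeq2 under either inhibitor, where edgeR called 7.57% and 16.2% of all genes higher. Ldhb, Mpc1 and Gpd1l under XAV939 and Ldhb under IWR-1 were called higher with the block, and Ldhb also under XAV939 without XAV939 replicate 3 (adjusted p = 0.0407). At an unadjusted p under 0.05 the number higher was 2 under XAV939 (Ldhb and Gpd1l) and 0 under IWR-1. The median log2 fold change over the members was -0.081 after knockdown, -0.30 under XAV939 and -0.49 under IWR-1, while the median over all genes was within 0.02 of zero in each comparison. All 3 siTnks/2 libraries lay below all siCtrl libraries for 15 members (22.2% of all genes) and above them for 9 (21.6%), whereas XAV939 lay below DMSO for 17 members (16.8%) and above for 2 (16.4%), and IWR-1 below for 20 (26.4%) and above for 1 (24.7%). The inhibitors share the DMSO libraries, so their changes are not independent of each other.

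Only 3 members were called lower in all 3 comparisons, namely Gpi1, Pfkp and Slc16a3. A further 7 were lower after knockdown and under IWR-1 (Aldoa, Gapdh, Ldha, Pgam1, Pgk1, Pkm and Tpi1), and 5 were lower under both inhibitors without a call after knockdown (Aldoc, Eno2, Hk1, Pdk1 and Pdk3). Pdk4 was higher after knockdown and lower under both inhibitors, and Pfkfb3 was higher after knockdown and lower under IWR-1. Bpgm, Gpd2, Ldhb, Pdhb and Pfkm were called higher after knockdown and in neither inhibitor comparison. Pfkfb4 and Slc16a1 were called lower under IWR-1 alone, and 9 members were called in no comparison (Eno1, Gpd1l, Hk2, Mpc1, Mpc2, Pdha1, Pdk2, Pfkfb2 and Pfkl). Calls after knockdown fell in number in most fits that left out 1 library, among the members and over all genes. They fell from 17 to 2 without siCtrl replicate 1, 3 without siCtrl replicate 2, 5 without siCtrl replicate 3, 6 without siTnks/2 replicate 1 and 11 without siTnks/2 replicate 3, and the calls over all genes fell from 2459 to between 608 and 2229 in the same fits. Without siTnks/2 replicate 2, 16 members and 2868 of all genes were called. Slc16a3 and Pdk4 were the 2 members whose knockdown call held in every fit. Without DMSO replicate 3, 13 members were called under XAV939 in place of 9, the additions being Aldoa (adjusted p = 0.0483), Pgam1 (0.0434), Pkm (0.0470) and Ldha (0.0328), in a fit that called 2142 of all genes in place of 2416. Deviations from the group mean were positively correlated between libraries of the same replicate number in both experiments. In the drug experiment these correlations were not always larger than those between different numbers. With the replicate number as a block, 21 members were called under XAV939, 18 lower and 3 higher, in a fit that called 4630 of all 13873 genes tested in place of 2416. After knockdown the block added 6 members to the 17 called and lost none, in a fit that called 4727 of all genes in place of 2459.

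**Figure D1:**
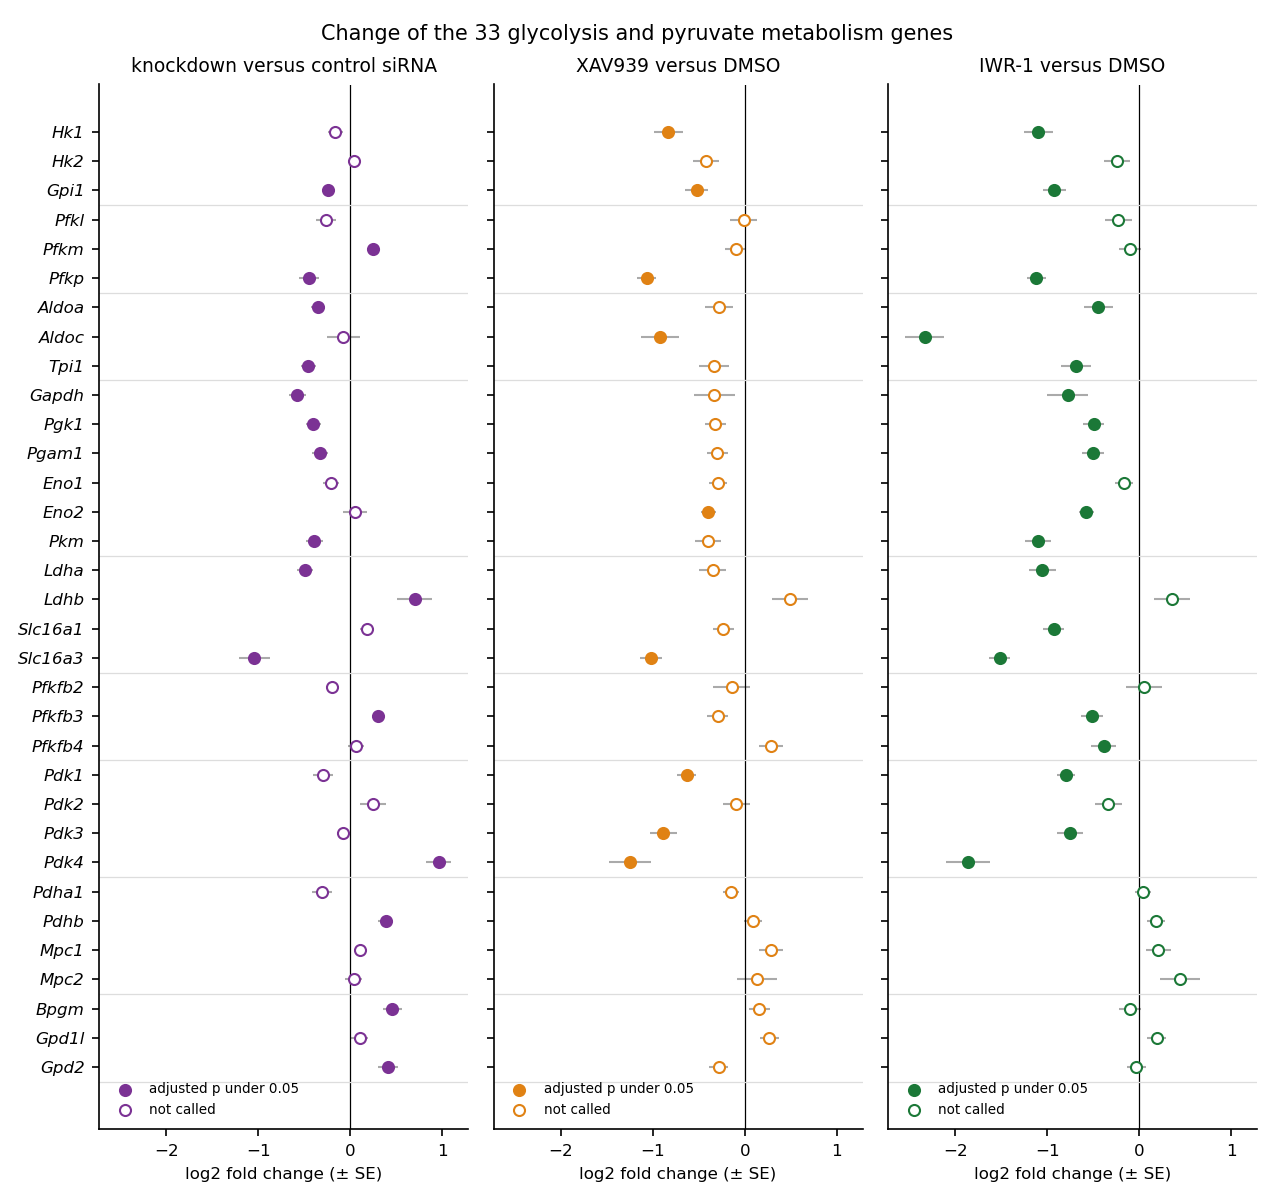
Log2 fold change of each of the 33 genes (x axis) with its standard error, ordered by step from glucose to pyruvate oxidation, in the 3 comparisons. Filled points have an adjusted p under 0.05. In the inhibitor panels no filled point lies right of 0, whereas the knockdown panel holds 10 filled points on the left and 7 on the right.

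Hexokinases trap glucose as glucose 6-phosphate, and glucose phosphate isomerase (Gpi1) turns it into fructose 6-phosphate. Gpi1 (Entrez gene 14751, chr7:34201327-34230336, mm10) measured 413, 436 and 399.8 CPM in the siCtrl libraries and 364, 348 and 341 CPM in the siTnks/2 libraries, -0.25 (SE 0.064, adjusted p = 0.0410) as a log2 change. In the drug experiment Gpi1 went from 1243, 1255 and 993 CPM under DMSO to 797, 885 and 751 CPM under XAV939 and 595, 645 and 604 CPM under IWR-1. The groups did not overlap in any of these comparisons, and the changes under the inhibitors were -0.52 (SE 0.12, adjusted p = 0.0165) and -0.92 (SE 0.13, adjusted p = 0.000230). The knockdown call of Gpi1 was lost without any 1 of the 3 siCtrl libraries or without siTnks/2 replicate 1 or 3 (adjusted p up to 0.141), and with no filter on low counts (0.0564). Its XAV939 call was lost without DMSO replicate 1 (0.0734) or XAV939 replicate 1 (0.0579), and with XAV939 and DMSO fitted alone (0.0526). Hk1, the widely expressed hexokinase, fell from 625, 522 and 578 CPM under DMSO to 263, 404 and 303 CPM under XAV939 and 250.4, 275 and 282 CPM under IWR-1. All inhibitor libraries lay below all DMSO libraries, with changes of -0.83 (SE 0.15, adjusted p = 0.00451) and -1.09 (SE 0.15, adjusted p = 0.000290). In the siRNA experiment Hk1 overlapped between groups, at 238, 279 and 258 CPM against 218, 246 and 227 CPM, a difference of -0.16 (SE 0.081, adjusted p = 0.193), and the p became 0.0399 with the replicate block. Hk2, the inducible hexokinase, was not called in any comparison, at 0.040 (SE 0.049), -0.42 (SE 0.14) and -0.25 (SE 0.14). Its libraries overlapped throughout, from 182, 162 and 211 CPM under DMSO to 117, 164 and 135 CPM under XAV939 and 142, 163 and 164 CPM under IWR-1. The XAV939 value of Hk2 passed with the block (adjusted p = 0.0184), with DESeq2 (0.0411) and without DMSO replicate 2 (0.0467) or XAV939 replicate 2 (0.0280).

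Phosphofructokinase adds the second phosphate and is the classic control point of glycolysis, built from liver (Pfkl), muscle (Pfkm) and platelet (Pfkp) subunits. Pfkp (Entrez gene 56421, chr13:6579874-6649060) was the subunit that fell. It measured 265, 243 and 255 CPM under DMSO, 106, 131 and 127 CPM under XAV939 and 116, 116 and 119 CPM under IWR-1. The inhibitor libraries sat at about the same level as each other and far below DMSO, with changes of -1.07 (SE 0.10, adjusted p = 0.000122) and -1.12 (SE 0.10, adjusted p = 1.89e-05). After knockdown, Pfkp went from 137, 152 and 139 to 107, 87.7 and 118 CPM, without overlap, a change of -0.45 (SE 0.11, adjusted p = 0.0364). This call was lost without any 1 siCtrl library or without siTnks/2 replicate 1, at adjusted p up to 0.104. Pfkm rose after knockdown, from 75.1, 73.5 and 72.9 to 87.8, 91.9 and 82.5 CPM, a change of 0.24 (SE 0.059, adjusted p = 0.0334) that was likewise lost without any 1 siCtrl library or siTnks/2 replicate 1, and with library totals as the only scaling (adjusted p up to 0.122). In the drug experiment its groups overlapped, at 89.5, 89.6 and 74.8 CPM under DMSO, 78.7, 88.8 and 69.6 CPM under XAV939 and 82.3, 81.8 and 73.2 CPM under IWR-1. Pfkl was not called, with -0.27 (SE 0.11) after knockdown, -0.010 (SE 0.15) under XAV939 and -0.23 (SE 0.15) under IWR-1, although its knockdown value passed with the replicate block (adjusted p = 0.0161) and with library totals as the only scaling (0.0416). The siTnks/2 libraries of Pfkl, at 287, 304 and 253 CPM, lay below the siCtrl libraries, at 327, 385 and 305 CPM. Pfkm shares its locus with Senp1 and Pfkp shares its locus with Pitrm1, and how reads were divided there depends on the counting, whose strand setting is not given in the sources used here. The same holds for Aldoa with Fam57b, Tpi1 with Spsb2, Pfkfb2 with Yod1 and Pdha1 with Map3k15.

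Aldolases cleave fructose 1,6-bisphosphate, and triose phosphate isomerase (Tpi1) interconverts the 2 triose phosphates. Aldoc (Entrez gene 11676, chr11:78323073-78327781), the aldolase known from brain, had the deepest fall of any member under IWR-1. Its level was 85.8, 78.7 and 51.7 CPM under DMSO, 37.2, 47.2 and 30.2 CPM under XAV939 and 14.7, 16.0 and 12.3 CPM under IWR-1. The 3 groups formed 3 separate levels, with changes of -0.92 (SE 0.21, adjusted p = 0.0119) and -2.33 (SE 0.22, adjusted p = 2.01e-05), and the XAV939 call was lost without DMSO replicate 1 (adjusted p = 0.0560). In the siRNA experiment Aldoc overlapped between groups, at 20.4, 22.5 and 20.5 CPM against 18.3, 26.0 and 16.0 CPM, a change of -0.075 (SE 0.18, adjusted p = 0.796). Aldoa, per kilobase of exon the more abundant aldolase in every group, measured 1264, 1284 and 1227 CPM in siCtrl and 1059, 938 and 956 CPM in siTnks/2. Under DMSO it measured 2157, 2302 and 1577 CPM, under XAV939 1766, 1756 and 1453 CPM and under IWR-1 1492, 1565 and 1385 CPM. DMSO replicate 3 lay well under the other DMSO libraries and within the XAV939 range. Aldoa changed by -0.35 (SE 0.078, adjusted p = 0.0251) after knockdown and -0.44 (SE 0.16, adjusted p = 0.0473) under IWR-1. These calls sat near the threshold. The knockdown call was lost without any 1 siCtrl library or siTnks/2 replicate 3 (up to 0.104), and the IWR-1 call was lost in 8 alternative fits, among them those without any 1 IWR-1 library or without DMSO replicate 1 or 2 (up to 0.152). Tpi1 measured 850.5, 914 and 804 CPM in siCtrl and 674, 610.2 and 588 CPM in siTnks/2, a change of -0.46 (SE 0.085, adjusted p = 0.0162) that was lost without siCtrl replicate 1 (0.0696) or 2 (0.0586). Under IWR-1, Tpi1 went from 1988, 1989 and 1462 to 1166, 1172 and 1037 CPM, -0.69 (SE 0.16, adjusted p = 0.00632). Its XAV939 value, -0.34 (SE 0.16, adjusted p = 0.174), passed with the replicate block (adjusted p = 0.0253).

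Lower glycolysis runs from glyceraldehyde 3-phosphate to pyruvate through Gapdh, Pgk1, Pgam1, enolase and Pkm. Per kilobase of exon, Gapdh, Pgk1, Pgam1 and Pkm were among the most abundant members of the list, and the enolases Eno1 and Eno2 were not. Gapdh, the dehydrogenase that is often taken as a stable reference gene, measured 2748, 2859 and 2658 CPM in siCtrl and 1989.7, 1722 and 1835 CPM in siTnks/2. The groups were apart, with a change of -0.58 (SE 0.089, adjusted p = 0.0102), which was lost without siCtrl replicate 1 (0.0530). Under DMSO Gapdh ranged widely, at 6402, 6672 and 4213 CPM, and the XAV939 libraries, at 4155, 6003 and 3573 CPM, overlapped with them. The IWR-1 libraries, at 3294.2, 3703 and 3109 CPM, lay below all DMSO libraries, a change of -0.77 (SE 0.22, adjusted p = 0.0195) that was lost without DMSO replicate 1 (0.0709) or 2 (0.0614) or without IWR-1 replicate 1 (0.0614) or 3 (0.0583). Pgk1, which makes the first ATP of the pathway, went from 2004, 2085 and 1795 CPM under DMSO to 1544, 1705 and 1471 CPM under XAV939 and 1380.3, 1462 and 1333 CPM under IWR-1. Both inhibitor groups lay below DMSO, with -0.32 (SE 0.12, adjusted p = 0.0852) and -0.49 (SE 0.12, adjusted p = 0.00693), and the XAV939 p was 0.0196 with the replicate block. Pkm, the pyruvate kinase of most tissues other than liver, measured 5409.8, 5031 and 4402 CPM under DMSO, 3445, 4347 and 3451 CPM under XAV939 and 2211, 2327 and 2397 CPM under IWR-1. The IWR-1 libraries lay below all others of the drug experiment, with a change of -1.10 (SE 0.14, adjusted p = 0.000168), against -0.40 (SE 0.14, adjusted p = 0.0748) under XAV939, which passed with the replicate block (adjusted p = 0.0220).

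After knockdown, Pgk1 went from 1091, 1153 and 1006 to 870.4, 785 and 803 CPM, -0.40 (SE 0.083, adjusted p = 0.0216). Pgam1, the phosphoglycerate mutase, went from 799.6, 893 and 753 to 698, 617 and 631 CPM, -0.33 (SE 0.091, adjusted p = 0.0491). Pkm went from 3044, 3234 and 3079.5 to 2508, 2171 and 2445 CPM, -0.39 (SE 0.092, adjusted p = 0.0303). All siTnks/2 libraries of these genes lay below all siCtrl libraries, yet each of the 3 calls was lost without any 1 siCtrl library or without siTnks/2 replicate 1 or 3, and that of Pgam1 also without siTnks/2 replicate 2 or with no filter on low counts (0.0549), with adjusted p up to 0.0913, 0.139 and 0.102. In the drug experiment Pgam1 measured 1465, 1506 and 1241 CPM under DMSO, 1071, 1213 and 1144 CPM under XAV939 and 1007, 1033 and 938 CPM under IWR-1. It was called under IWR-1, -0.50 (SE 0.12, adjusted p = 0.00672), and under XAV939 the value was -0.30 (SE 0.12, adjusted p = 0.106), which passed with the block (adjusted p = 0.0359). Eno2, the enolase known from neurons, was tightly grouped in the drug experiment, at 224, 212 and 222 CPM under DMSO, 166, 169 and 166 CPM under XAV939 and 145, 150.1 and 147 CPM under IWR-1. The 3 groups did not overlap, and the changes were -0.39 (SE 0.082, adjusted p = 0.00821) and -0.57 (SE 0.082, adjusted p = 0.000318). In the siRNA experiment Eno2 overlapped between groups, at 52.0, 60.5 and 48.6 CPM and 52.4, 65.7 and 49.2 CPM, with 0.055 (SE 0.13, adjusted p = 0.798). Eno1, the broadly expressed enolase, was not called in any comparison, at -0.21 (SE 0.088), -0.29 (SE 0.099) and -0.16 (SE 0.099), and its XAV939 value passed with the block (adjusted p = 0.0242), but its values are uncertain. The near-identical copy Eno1b is listed separately with more counts, on average 640 CPM against 199 CPM for Eno1 in siCtrl and 894 CPM against 265 CPM under DMSO, and reads could have been split between them. Gapdh, Aldoa, Pgk1, Pgam1 and Ldha each have 2 annotated pseudogenes named after them, and Mpc1 has 1. Such copies could also take reads, and pseudogenes under other names were not counted.

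**Figure D2:**
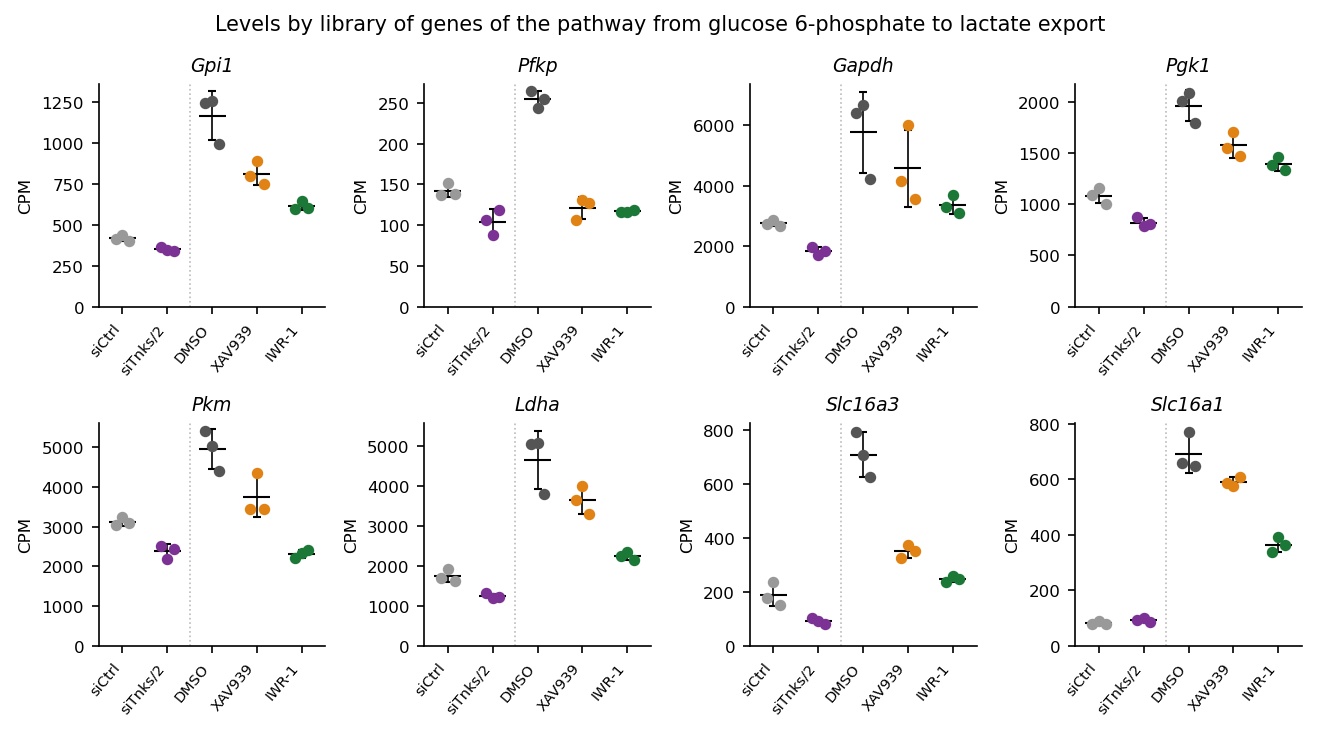
CPM (y axis, from 0) in each library for 8 genes from glucose 6-phosphate to lactate export. Points are libraries, the bar is the mean and the whiskers are the SD of 3 libraries, and the dotted line separates the siRNA from the drug experiment. The IWR-1 points lie below the DMSO points in all 8 panels, and the siTnks/2 points lie below the siCtrl points in 7, the exception being Slc16a1.

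Slc16a3 (Entrez gene 80879, chr11:120948484-120959000) encodes MCT4, the low-affinity transporter used for lactate export by glycolytic cells, and was the member with the deepest fall after knockdown. It measured 176, 234 and 152 CPM in siCtrl and 102, 89.7 and 81.5 CPM in siTnks/2. In the drug experiment the levels were 791, 708 and 624 CPM under DMSO, 326, 372 and 349 CPM under XAV939 and 236, 259 and 248 CPM under IWR-1. Every treated library lay below every control library, with changes of -1.04 (SE 0.17, adjusted p = 0.0109) after knockdown, -1.02 (SE 0.12, adjusted p = 0.000298) under XAV939 and -1.52 (SE 0.12, adjusted p = 7.53e-06) under IWR-1. Slc16a1, which encodes MCT1, the transporter of higher affinity, did not share this pattern. In the siRNA experiment it measured 78.9, 87.8 and 78.5 CPM in siCtrl and 92.0, 99.5 and 87.1 CPM in siTnks/2, with overlap, a difference of 0.18 (SE 0.074, adjusted p = 0.127) that passed with the replicate block (adjusted p = 0.0241). Under XAV939 Slc16a1 measured 587, 575 and 608 CPM against 658, 771 and 649 CPM under DMSO, -0.23 (SE 0.11, adjusted p = 0.172), and under IWR-1 it fell to 338, 390.5 and 363 CPM, -0.93 (SE 0.11, adjusted p = 9.51e-05).

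Ldha encodes the lactate dehydrogenase subunit associated with lactate formation and Ldhb the subunit of oxidative tissues. Ldha went from 1692, 1912 and 1621 CPM in siCtrl to 1307, 1188 and 1217 CPM in siTnks/2, a change of -0.49 (SE 0.092, adjusted p = 0.0162), lost without siCtrl replicate 1 (0.0647) or 2 (0.0541). Under DMSO it measured 5050.5, 5066 and 3792 CPM, under XAV939 3650.1, 3989 and 3296 CPM and under IWR-1 2229, 2345 and 2139 CPM. The XAV939 libraries overlapped DMSO replicate 3, and the IWR-1 libraries lay below all others, with -0.35 (SE 0.15, adjusted p = 0.130) and -1.05 (SE 0.15, adjusted p = 0.000294). The XAV939 change passed without DMSO replicate 3 (adjusted p = 0.0328) and with the replicate block (0.0277). Ldhb moved the other way, from 70.3, 62.7 and 59.3 CPM in siCtrl to 94.4, 137 and 80.8 CPM in siTnks/2, a change of 0.70 (SE 0.19, adjusted p = 0.0454). This call was lost without any 1 siCtrl library or siTnks/2 replicate 1 (up to 0.141). In the drug experiment Ldhb measured 48.0, 49.0 and 31.5 CPM under DMSO, 62.9, 71.8 and 46.4 CPM under XAV939 and 61.0, 56.4 and 47.5 CPM under IWR-1, with overlap between the groups. The log2 changes were also above 0, at 0.49 (SE 0.20, adjusted p = 0.107) and 0.36 (SE 0.20, adjusted p = 0.181), and passed with the replicate block (adjusted p = 0.00264 and 0.00713).

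The enzymes of the PFKFB family make and break fructose 2,6-bisphosphate, the activator of phosphofructokinase, and Pfkfb3 is the form with the strongest kinase activity. Pfkfb3 rose after knockdown and fell under IWR-1. Its levels were 162, 152 and 156 CPM in siCtrl and 186, 205 and 190.0 CPM in siTnks/2, without overlap, a change of 0.31 (SE 0.062, adjusted p = 0.0201). This call was lost without any 1 siCtrl library or siTnks/2 replicate 1, and with library totals as the only scaling, at adjusted p up to 0.0835. The drug libraries measured 353, 308 and 392 CPM under DMSO, 263, 305 and 291 CPM under XAV939 and 222, 257 and 258 CPM under IWR-1, with changes of -0.30 (SE 0.12, adjusted p = 0.112) and -0.52 (SE 0.12, adjusted p = 0.00614). The XAV939 value passed with the replicate block (adjusted p = 0.0443). Pfkfb4 was low in count, at 6.98, 6.08 and 6.88 CPM under DMSO and 4.83, 4.75 and 5.68 CPM under IWR-1, and its change of -0.39 (SE 0.13, adjusted p = 0.0419) was lost in 10 alternative fits, among them those without DMSO replicate 1 or 3 and those without IWR-1 replicate 1 or 2 (up to 0.151). Pfkfb2 was not called, at -0.20 (SE 0.071), -0.14 (SE 0.20) and 0.056 (SE 0.20), although its knockdown value passed with the block (adjusted p = 0.0350).

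Pyruvate dehydrogenase kinases switch off pyruvate dehydrogenase by phosphorylation and so hold pyruvate back from the mitochondrial cycle. Pdk4 (Entrez gene 27273, chr6:5483351-5496278), the form induced by fasting in muscle, moved in opposite directions in the 2 experiments. It was scarce, with 67, 60 and 74 counts in the siCtrl libraries and 115, 129 and 129 counts in the siTnks/2 libraries, or 2.08, 2.22 and 2.27 CPM against 3.99, 4.60 and 4.21 CPM. Knockdown raised it without overlap, by 0.96 (SE 0.14, adjusted p = 0.00822). Under DMSO it had 74, 63 and 90 counts (2.26, 1.83 and 2.83 CPM), under XAV939 33, 23 and 37 counts (0.889, 0.863 and 1.14 CPM) and under IWR-1 19, 22 and 22 counts (0.552, 0.706 and 0.638 CPM). All inhibitor libraries lay below all DMSO libraries, with changes of -1.25 (SE 0.23, adjusted p = 0.00418) and -1.86 (SE 0.24, adjusted p = 0.000155). Per kilobase of exon, Pdk4 was the least abundant member in every group.

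Pdk1 and Pdk3 were, per kilobase of exon, the more abundant kinases in every group and fell under both inhibitors. Pdk1 measured 195, 204 and 202 CPM under DMSO, 120.2, 141 and 126 CPM under XAV939 and 111, 127 and 108 CPM under IWR-1. The DMSO libraries were tightly grouped and lay above all others, with changes of -0.63 (SE 0.10, adjusted p = 0.00213) and -0.80 (SE 0.10, adjusted p = 0.000150). After knockdown, Pdk1 went from 71.8, 84.8 and 65.5 to 63.7, 62.0 and 55.1 CPM, a change of -0.30 (SE 0.11, adjusted p = 0.0964) that passed with the replicate block (adjusted p = 0.0219). Pdk3 fell from 83.8, 83.4 and 64.5 CPM under DMSO to 48.2, 34.2 and 43.1 CPM under XAV939 and 48.3, 45.5 and 43.7 CPM under IWR-1, with changes of -0.88 (SE 0.14, adjusted p = 0.00225) and -0.75 (SE 0.14, adjusted p = 0.00185), and showed -0.081 (SE 0.069, adjusted p = 0.441) after knockdown. All inhibitor libraries of Pdk3 lay below all DMSO libraries. Pdk2 overlapped between groups in every comparison and was not called, at 0.24 (SE 0.14), -0.094 (SE 0.15) and -0.33 (SE 0.15), and its IWR-1 value passed with the block (adjusted p = 0.0336) and without DMSO replicate 3 (0.0193).

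**Figure D3:**
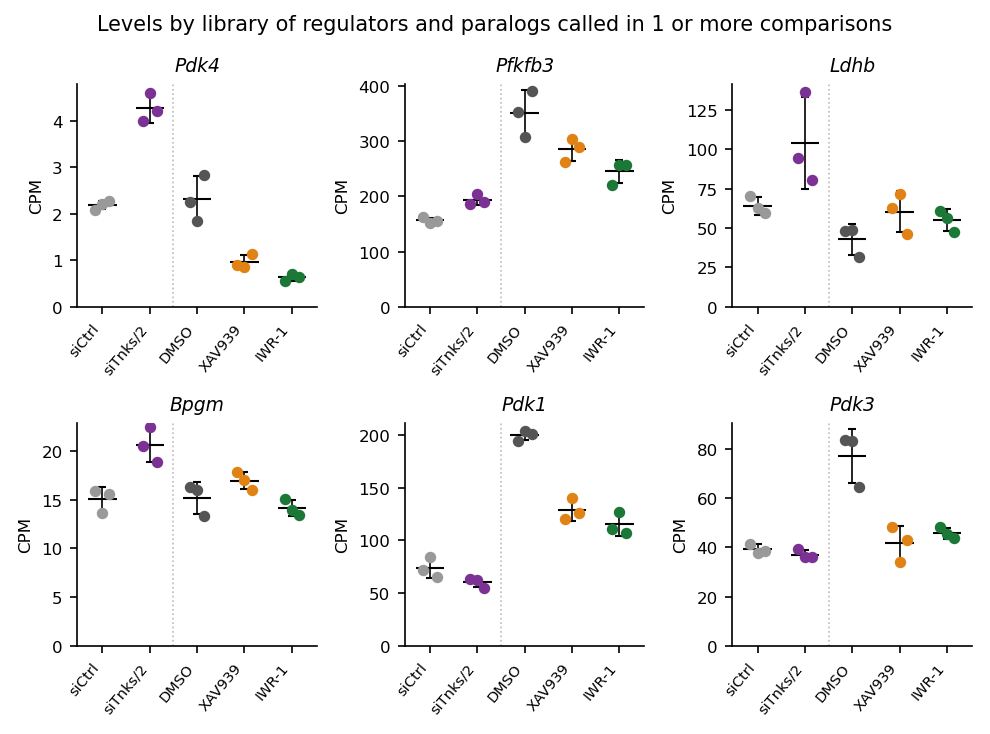
CPM (y axis, from 0) in each library for 3 pyruvate dehydrogenase kinases and 3 other members that were called higher after knockdown. Points are libraries, the bar is the mean and the whiskers are the SD of 3 libraries. Pdk4 and Pfkfb3 rose in siTnks/2 and fell under IWR-1, whereas Pdk1 and Pdk3 lay lower under both inhibitors than under DMSO.

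The genes that carry pyruvate into mitochondrial oxidation were not called under either inhibitor. The E1 subunits of pyruvate dehydrogenase, Pdha1 and Pdhb, and the pyruvate carrier subunits, Mpc1 and Mpc2, had values from -0.15 to 0.45 under XAV939 and IWR-1, and none of these 8 values was called by edgeR or by DESeq2 or passed at an unadjusted p under 0.05. With the replicate block the XAV939 value of Mpc1, 0.28 (SE 0.13), passed (adjusted p = 0.0332). After knockdown the E1 subunits went in opposite directions. Pdhb rose from 56.1, 54.8 and 56.8 to 71.2, 81.0 and 66.2 CPM, without overlap, by 0.38 (SE 0.081, adjusted p = 0.0232), a call lost without any 1 siCtrl library or siTnks/2 replicate 1 (up to 0.0907). Pdha1 went from 169, 155 and 165 to 139.7, 111 and 144 CPM, also without overlap, by -0.31 (SE 0.10, adjusted p = 0.0817), and passed with DESeq2 (adjusted p = 0.0421) and with the block (0.0173). On the side branches, Bpgm, which makes 2,3-bisphosphoglycerate, rose after knockdown from 16.0, 13.6 and 15.6 to 20.5, 22.5 and 18.9 CPM, 0.46 (SE 0.10, adjusted p = 0.0268), and Gpd2, the mitochondrial enzyme of the glycerol phosphate shuttle, rose from 52.4, 42.4 and 52.0 to 69.3, 57.3 and 68.7 CPM, 0.41 (SE 0.11, adjusted p = 0.0469). Both calls were lost without any 1 siCtrl library or siTnks/2 replicate 1, at adjusted p up to 0.0831 and 0.135. That of Gpd2 was also lost without siTnks/2 replicate 3 (0.0995), with upper-quartile normalisation (0.0521) and with library totals as the only scaling (0.140). Bpgm overlapped between DMSO, at 16.3, 16.0 and 13.3 CPM, and both inhibitors, at 17.9, 17.0 and 16.0 CPM and 15.1, 13.99 and 13.5 CPM. Under XAV939 the values were -0.28 (SE 0.10, adjusted p = 0.0850) for Gpd2 and 0.27 (SE 0.10, adjusted p = 0.105) for Gpd1l, which makes glycerol 3-phosphate in the cytosol, and both passed with the block (adjusted p = 0.0278 and 0.0488).

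The choice of paralog at a step was followed as the log2 ratio of the CPM of 2 paralogs within each library, a value that scaling between libraries cannot move. There were 14 ratios and 42 comparisons, and with 3 libraries against 3 the exact two-sided permutation test cannot go below 0.1 (0.156 after Benjamini-Hochberg adjustment over the 42). The groups did not overlap in 27 of the 42, a description with no background, since ratios of other gene pairs were not computed and several ratios share a gene. These 27 include shifts in either direction. Of single genes, 22.2% lay below the control without overlap after knockdown and 21.6% lay above. The shares below and above were 16.8% and 16.4% under XAV939, and 26.4% and 24.7% under IWR-1. The share of single genes without overlap in either direction is the sum of the 2 shares of a comparison. In 4 ratios the shift had the same direction and no overlap in all 3 comparisons. The Ldhb/Ldha ratio went from -4.59, -4.93 and -4.77 in siCtrl to -3.79, -3.12 and -3.91 in siTnks/2, and from -6.72, -6.69 and -6.91 under DMSO to -5.86, -5.80 and -6.15 under XAV939 and -5.19, -5.38 and -5.49 under IWR-1. Its mean shifts were 1.16, 0.84 and 1.42, each at the smallest possible exact p. Per kilobase of exon, Ldhb made up 6.46% to 8.05% of the lactate dehydrogenase transcripts in siCtrl and 12.3% to 19.5% in siTnks/2, against 1.72% to 2.00% under DMSO, 2.89% to 3.66% under XAV939 and 4.47% to 5.45% under IWR-1.

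The Slc16a3/Slc16a1 ratio was lower in every treated group than in its control. The ratio went from 1.16, 1.42 and 0.96 in siCtrl to 0.15, -0.15 and -0.095 in siTnks/2, and from 0.27, -0.12 and -0.058 under DMSO to -0.85, -0.63 and -0.80 under XAV939 and -0.52, -0.59 and -0.55 under IWR-1. The mean shifts were -1.21, -0.79 and -0.58, and per kilobase the Slc16a3 share of the pair went from a median of 65.0% in siCtrl to 43.8% in siTnks/2. The Hk2/Hk1 ratio was higher by 0.20, 0.43 and 0.85, and the Pdk2/Pdk1 ratio was higher by 0.54, 0.55 and 0.48. Other ratios shifted in 1 experiment alone or in opposite directions. Aldoc/Aldoa shifted by -0.64 and -1.88 under the inhibitors and overlapped after knockdown, and Pfkp/Pfkl did the same, at -1.04 and -0.89. Pdk4/Pdk1 was higher by 1.25 after knockdown and shifted by -1.05 under IWR-1, while the XAV939 libraries overlapped with DMSO. Gpd2/Gpd1l was higher by 0.31 after knockdown and shifted by -0.54 and -0.22 under the inhibitors. For Pdk3/Pdk1 and Mpc2/Mpc1 the groups overlapped in all 3 comparisons.

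**Figure D4:**
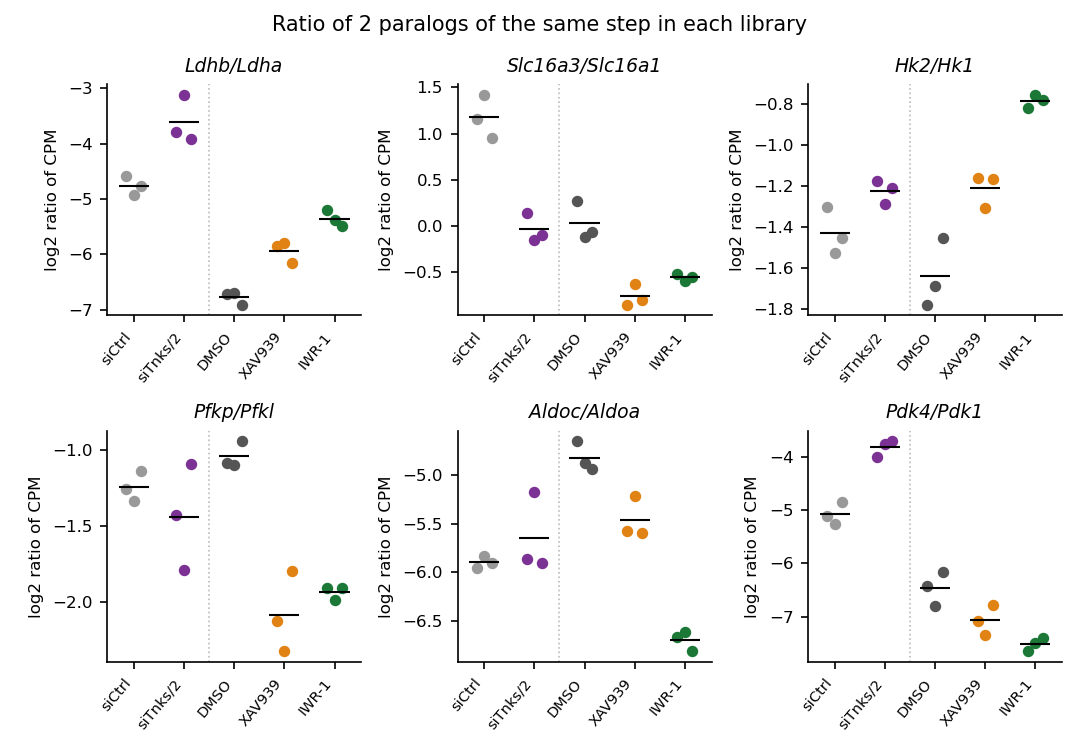
Log2 ratio of the CPM of 2 paralogs (y axis) in each library for 6 pairs. Points are libraries, the bar is the mean of 3, and the dotted line separates the siRNA from the drug experiment. Ldhb/Ldha and Hk2/Hk1 lie higher and Slc16a3/Slc16a1 lies lower in every treated group than in its control, and Pdk4/Pdk1 lies higher in siTnks/2 and lower under IWR-1.

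The 2 inhibitors, given at the same dose and for the same time, were compared directly for all 33 members, with p-values adjusted over all genes tested. IWR-1 was lower than XAV939 for 7 members, against 10.2% of all genes called lower (17.6% in either direction). IWR-1 was not called higher for any member by edgeR or DESeq2, against 7.37% of all genes (1 member, Gpd2, at an unadjusted p under 0.05). Aldoc differed most, by -1.41 (SE 0.21, adjusted p = 0.00143), followed by Slc16a1 at -0.70 (SE 0.11, adjusted p = 0.00184), Ldha at -0.70 (SE 0.15, adjusted p = 0.00823) and Pkm at -0.70 (SE 0.14, adjusted p = 0.00706). Pfkfb4 at -0.67 (SE 0.13, adjusted p = 0.00620), Slc16a3 at -0.50 (SE 0.11, adjusted p = 0.0132) and Gpi1 at -0.40 (SE 0.12, adjusted p = 0.0492) completed the list. The smallest difference among members called under both compounds was that of Pfkp, -0.052, with a 95% interval of -0.28 to 0.17. Pdk3 differed by 0.13 (-0.18 to 0.45), Pdk1 by -0.16 (-0.39 to 0.060) and Hk1 by -0.26 (-0.60 to 0.073). For Pdk4 the interval, -1.17 to -0.050, left out 0 while the adjusted p was 0.127.

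Whether an inhibitor moved a gene differently from the knockdown was tested as an interaction over all 15 libraries. For XAV939 the difference was called for 7 members, each lower under the compound, against 8.07% of all genes lower, 5.40% higher and 13.5% in either direction. For IWR-1 it was called for 15 members, each lower, against 13.9% lower, 10.5% higher and 24.4% in either direction. Pdk4 differed most, by -2.23 (SE 0.27, adjusted p = 0.000211) and -2.84 (SE 0.27, adjusted p = 9.31e-06). Hk1, Pfkp, Pfkfb3, Pdk3, Slc16a1 and Gpd2 were the others called for both compounds, and Aldoc, at -2.27 (SE 0.30, adjusted p = 0.000104), was the next after Pdk4 in size for IWR-1. Slc16a3, at 0.0096 (SE 0.20, adjusted p = 0.983) and -0.48 (SE 0.20, adjusted p = 0.0923), was not called for either compound. The count for XAV939 was 2 with library totals as the only scaling, which shifted the median of all genes in this contrast to 0.13, and 12 with the replicate block. The experiments also differ in their controls, transfection with a control siRNA in one and solvent in the other, and this cannot be told apart from the agent.

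Other genes of carbohydrate metabolism were followed from gene lists. Of 30 further glycolysis and pyruvate genes tested, 6 were called higher and 3 lower after knockdown, 3 higher and 3 lower under XAV939, and 4 higher and 8 lower under IWR-1. Over all genes tested, 10.4% were called higher and 7.61% lower after knockdown. The shares were 7.57% and 9.85% under XAV939 and 16.2% and 20.2% under IWR-1. Fbp1, the gluconeogenic fructose bisphosphatase, rose by 1.25 (SE 0.18, adjusted p = 0.00849) after knockdown. Me2, the mitochondrial malic enzyme that makes pyruvate, changed by -1.22 (SE 0.093, adjusted p = 4.62e-05) under XAV939 and -1.09 (SE 0.093, adjusted p = 1.28e-05) under IWR-1. Slc16a7, the monocarboxylate transporter MCT2, changed by -1.98 (SE 0.23, adjusted p = 7.46e-05) under IWR-1, while Pck2, the mitochondrial phosphoenolpyruvate carboxykinase, rose by 0.999 (SE 0.13, adjusted p = 0.000135). In the tricarboxylic acid cycle, 4 of 16 genes were called lower after knockdown (7.61% of all genes), with citrate synthase Cs at -0.30 (SE 0.059, adjusted p = 0.0193). Under IWR-1, 2 of the cycle genes were called higher (16.2% of all genes), Suclg2 at 0.73 (SE 0.091, adjusted p = 0.000133) and Sdhb at 0.60 (SE 0.16, adjusted p = 0.0121). The medians of this list were -0.17 after knockdown, 0.12 under XAV939 and 0.12 under IWR-1.

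HIF targets that are not glycolytic were lower under the inhibitors. Of 19 such genes, 1 was called lower after knockdown, and 16 and 17 were called lower under XAV939 and IWR-1. Over all genes tested, 7.61%, 9.85% and 20.2% were called lower in these comparisons. The gene called after knockdown was Adm, which encodes the peptide adrenomedullin, at -0.83 (SE 0.15, adjusted p = 0.0162). The medians were -0.16, -0.80 and -1.07. In the interaction test, 8 of the 19 were called lower for XAV939 than for knockdown and 15 for IWR-1, against 8.07% and 13.9% of all genes. Egln3, a HIF prolyl hydroxylase, changed by -1.75 (SE 0.10, adjusted p = 1.33e-05) under XAV939 and -2.59 (SE 0.10, adjusted p = 6.89e-07) under IWR-1, against -0.35 (SE 0.17) after knockdown. Hilpda, a lipid droplet protein, changed by -1.77 (SE 0.13, adjusted p = 3.51e-05) under XAV939, and Car9, carbonic anhydrase 9, by -2.11 (SE 0.12, adjusted p = 1.52e-06) under IWR-1. In 13 of 17 of these genes with a promoter entry (76.5%) at least 1 window held ACGTG, against 3 of 13 tricarboxylic acid cycle genes (23.1%). Counted per window, the contrast was smaller, with 14 of 23 windows (60.9%) of the HIF targets, 8 of 18 (44.4%) of the cycle genes, 23 of 51 (45.1%) of the members and 25.2% of the windows of genes tested in both tables. The gene lists were chosen with results of these data known, and no test of a list was made.

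**Figure D5:**
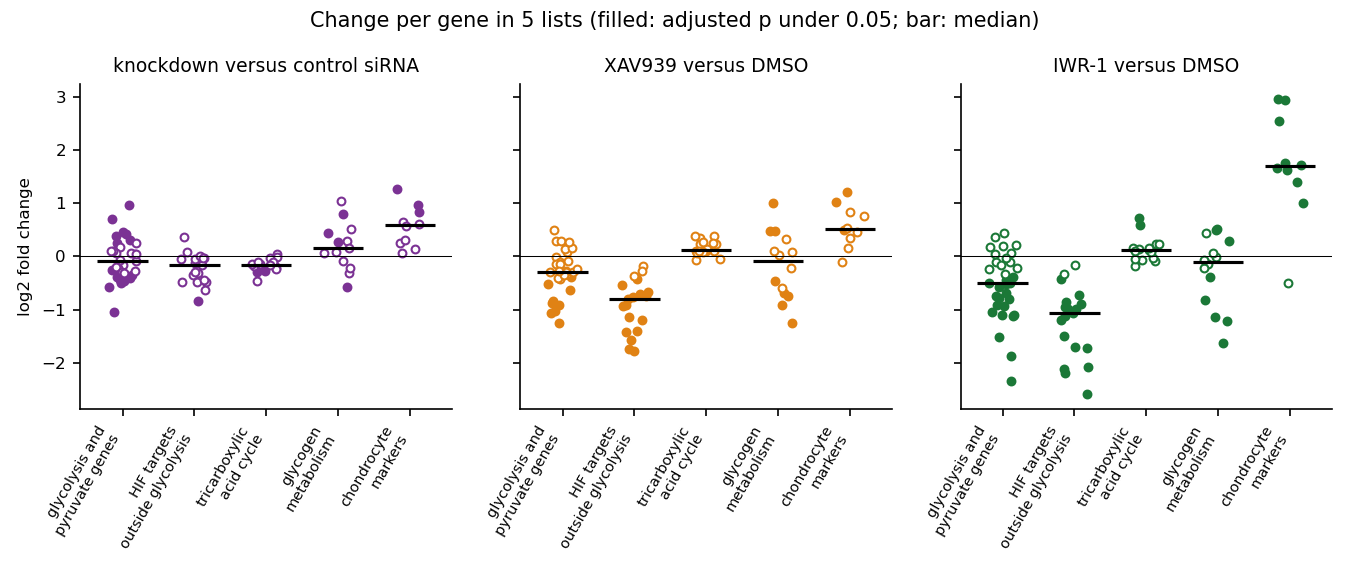
Log2 fold change of each gene (y axis) in 5 lists, in the 3 comparisons. Points are genes, filled where the adjusted p was under 0.05, and bars are medians over the genes tested. The HIF target list lies low in both inhibitor panels, at medians of -0.80 and -1.07, and near the glycolysis genes after knockdown, and chondrocyte markers lie high in all 3 panels.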

How the data were processed

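The data are RNA-seq counts per gene from 15 libraries of mouse articular chondrocytes, 3 per group. According to the methods and processing notes of the study, Trimmomatic 0.32 was used for trimming, TopHat2 2.0.13 for alignment to mm10 and HTSeq 0.6.1p1 for counting, and the authors deposited whole-number counts for 24134 genes in 1 table per experiment, with no normalisation. Which annotation and which strand option HTSeq was run with is not given in the sources used here. Of the identifiers, 24051 matched a RefSeq gene and 83 did not. The 33 members, the other gene lists and the tests were chosen with earlier results of these data known.

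Counts were scaled by the trimmed mean of M values, filtered with filterByExpr and tested with the quasi-likelihood F test of edgeR 4.0.16 (R 4.3.3) over all 13672 genes of the siRNA table and 13873 of the drug table, with Benjamini-Hochberg adjustment and a threshold of 0.05. The 3 drug groups shared 1 fit, and the inhibitor effects were compared with the knockdown effect as interaction terms over 14271 genes. All members passed the filter in both tables. Numbers of counts limit precision most for Pdk4, and counting error is part of the spread between libraries. Nothing says that the replicates came from separate animals, so p-values measure the spread between these libraries. Paralog ratios were compared by exact two-sided permutation tests, and levels between genes only per kilobase of GENCODE exon. Coordinates are mm10 (GRCm38).

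Per-library values were given for members called in at least 1 comparison and for both genes of a paralog pair, with the targeted genes as a check of the labels, and for other lists at most the 3 genes with the smallest adjusted p per comparison. Where several members of a kind moved alike, a part of their values was left out. The correlation of deviations from group means between libraries of the same number ran from 0.1488 to 0.6481 in the drug table and from 0.4686 to 0.5447 in the siRNA table. Between different numbers it reached 0.4316 and 0.1224. The siRNA libraries thus went together by number. In the drug table the ranges overlapped, since DMSO replicate 2 correlated 0.1488 with XAV939 replicate 2 and 0.4316 with IWR-1 replicate 1. Pairing is not stated in the sources used here, so the main fits had no block. The alternatives were other scalings, filters and sets of groups, DESeq2 1.42.0, a replicate block and leaving out each library in turn. The edgeR tests were run on simulated counts with known changes, as were DESeq2 and the replicate block for IWR-1 versus DMSO. The simulated libraries were drawn independently, with the same dispersion for every gene and no replicate effect. They therefore could not show how the block handles libraries that go together by number. The permutation test was not checked in this way.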

Additional observations from a re-analysis of the deposited data

Results flagged for a closer look

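The members below are those whose change under an inhibitor differed from their change after knockdown in the interaction test over all 15 libraries (edgeR quasi-likelihood test). Every value is the inhibitor change minus the knockdown change on the log2 scale, and in all 22 cases it was below 0. The experiments also differ in their controls, which cannot be told apart from the agents.

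Among the regulators of pyruvate oxidation, Pdk4 differed by -2.23 (SE 0.27, adjusted p = 0.000211) for XAV939 and -2.84 (SE 0.27, adjusted p = 9.31e-06) for IWR-1, with the knockdown and inhibitor changes in opposite directions. Pdk3 differed by -0.82 (SE 0.17, adjusted p = 0.00670) and -0.68 (SE 0.17, adjusted p = 0.00897), and Pdk1 by -0.51 (SE 0.15, adjusted p = 0.0219) for IWR-1. Pfkfb3, called higher after knockdown and lower under IWR-1 but not called under XAV939, differed by -0.62 (SE 0.15, adjusted p = 0.0143) and -0.83 (SE 0.15, adjusted p = 0.000962), and Pfkfb4 by -0.46 (SE 0.16, adjusted p = 0.0469) for IWR-1.

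Of the pathway enzymes, Hk1 differed by -0.68 (SE 0.19, adjusted p = 0.0323) and -0.94 (SE 0.19, adjusted p = 0.00270), and Pfkp by -0.63 (SE 0.15, adjusted p = 0.0152) and -0.68 (SE 0.15, adjusted p = 0.00489). For IWR-1 alone, Gpi1 differed by -0.68 (SE 0.15, adjusted p = 0.00350), Aldoc by -2.27 (SE 0.30, adjusted p = 0.000104), Eno2 by -0.64 (SE 0.15, adjusted p = 0.00615), Pkm by -0.71 (SE 0.17, adjusted p = 0.00790) and Ldha by -0.57 (SE 0.18, adjusted p = 0.0329). The lactate transporter gene Slc16a1 differed by -0.43 (SE 0.13, adjusted p = 0.0478) for XAV939 and -1.12 (SE 0.13, adjusted p = 4.86e-05) for IWR-1. On the side branches, Gpd2 differed by -0.71 (SE 0.16, adjusted p = 0.00938) and -0.45 (SE 0.16, adjusted p = 0.0466), and Bpgm by -0.57 (SE 0.15, adjusted p = 0.0153) for IWR-1.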

How the results depend on the processing

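Calls held in every setting were 16 of 19 under IWR-1, 7 of 9 under XAV939 and 2 of 17 after knockdown. These shares come from unlike fits, since the siRNA fit held 2 groups and the drug fit 3. Leaving out 1 library thus removed a larger part of the siRNA fit. Calls over all genes then ran from 608 to 2868 after knockdown, 1322 to 2484 under XAV939 and 3771 to 5669 under IWR-1. The number of members called ran from 2 to 16 after knockdown, 7 to 13 under XAV939 and 16 to 19 under IWR-1 when each library was left out in turn, with medians from -0.12 to -0.057, -0.34 to -0.27 and -0.56 to -0.45. Under XAV939, 15 members were called with DESeq2, which called 2922 of all 13873 genes (2416 with edgeR). With the replicate block 21 were called under XAV939, 23 after knockdown and 21 under IWR-1, and 12 for the difference between XAV939 and knockdown, and no call among the 3 main comparisons was lost. All-gene calls with the block were 4727 after knockdown (2459 without it), 4630 under XAV939 (2416) and 6593 under IWR-1 (5049). For IWR-1 versus XAV939 they were 4258 (2442), and for XAV939 minus knockdown 4018 (1922). Fitting XAV939 with DMSO alone called 1569 genes. Library totals as the only scaling moved the knockdown median of the members to -0.17 and left 2 members called for XAV939 minus knockdown, with a median of all genes of 0.13. The share of all calls that were higher went from 57.7% to 41.2% after knockdown under that scaling and from 43.5% to 58.4% under XAV939 (53.3% with upper-quartile normalisation). For XAV939 minus knockdown it went from 40.1% to 71.2% (52.7% with upper quartile), and for IWR-1 minus knockdown from 42.9% to 61.1%.

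Direction changed in 22 values, none of them called. With library totals alone the knockdown values were -0.047 for Hk2, -0.036 for Eno2, -0.026 for Pfkfb4 and -0.055 for Mpc2, and Gpd2 under IWR-1 was 0.0032. Pfkl under XAV939 was 0.034 with library totals and 0.041 with upper quartile. Other changes of direction came with leaving out 1 library, and the lowest and highest values over those fits are given. After knockdown the ranges were -0.30 to 0.066 for Aldoc, -0.079 to 0.15 for Eno2 and -0.015 to 0.12 for Mpc2. Under XAV939 they were -0.21 to 0.079 for Pfkl, -0.31 to 0.13 for Pfkfb2, -0.23 to 0.000242 for Pdk2 and -0.055 to 0.32 for Mpc2. Under IWR-1 they were -0.090 to 0.33 for Pfkfb2 and -0.084 to 0.064 for Gpd2. The causes were not tested. Depth limits Pdk4 most, at 19 to 129 counts a library.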

Other observations

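Glycogen metabolism, which stores and releases the glucose 6-phosphate that enters glycolysis, had calls in both directions. After knockdown 3 of 13 genes tested were called higher and 1 lower, and under XAV939 and IWR-1 3 of 14 were higher and 5 lower each. Over all genes tested, 10.4% were called higher and 7.61% lower after knockdown. The shares were 7.57% and 9.85% under XAV939 and 16.2% and 20.2% under IWR-1. Gbe1, the branching enzyme, rose by 0.44 (SE 0.082, adjusted p = 0.0162) after knockdown and changed by -1.25 (SE 0.12, adjusted p = 0.000147) under XAV939 and -1.62 (SE 0.12, adjusted p = 7.59e-06) under IWR-1. Gys1, the muscle-type glycogen synthase, changed by -0.57 (SE 0.10, adjusted p = 0.0141), -0.74 (SE 0.10, adjusted p = 0.00106) and -0.82 (SE 0.10, adjusted p = 0.000152). The medians of the list were 0.16, -0.10 and -0.10.

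The pentose phosphate pathway had 1 of 10 genes called lower after knockdown, 1 higher and 3 lower under XAV939, and 2 higher and 3 lower under IWR-1, with medians of -0.09, 0.10 and -0.04. The shares over all genes are those given above for glycogen metabolism. Summed osteoblast and osteocyte markers were 47.1 to 55.1 CPM in siCtrl and 61.4 to 110.8 CPM in siTnks/2, and 40.7 to 63.6 CPM under DMSO, 52.3 to 59.6 CPM under XAV939 and 31.7 to 50.04 CPM under IWR-1.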
